A study of Mus musculus with 2 samples.

Results

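The Klr genes encode killer-cell lectin-like receptors, and their accessible regions were mapped in mouse CD8+ T cells. Members were all protein-coding genes of mm10 whose symbol begins with Klr, and 29 matched. Of these, 27 had a position on chromosome 6 and are described below. They were among 21774 protein-coding genes placed on chromosomes 1 to 19, X and Y. Klra16 and Klra23 stood in the gene table apart from the ordered part of chromosome 6 and were not placed. The members comprised 11 Klra genes, 5 Klrb, 3 Klrc, 2 Klri and 2 Klrg genes, and 1 each of Klrd, Klre, Klrh and Klrk. The locus of a member reached 10 kb beyond either end of its span, and a peak touching several loci was counted once.

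The assay was ATAC-seq: a transposase cuts open DNA and tags it with adapters, and stretches with many cuts are called as peaks. There were 2 libraries, 1 titled Control and 1 titled Treatment, both labelled CD8+ T cells and called Peml-1 in the title of the series. Their treatment field reads "Treatment" for the first and "Combined treatment" for the other, so the labels disagree on whether the control library was itself treated, and neither agent, dose, time, strain nor age is named. Control and treatment below mean the titles, each result compares these libraries and not the conditions, and with 1 library per group no difference could be set against a spread between replicates. No test was made.

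Klr proteins are surface receptors of the C-type lectin fold, carried by natural killer (NK) cells and by subsets of activated and memory CD8+ T cells. Most lie side by side in a cluster called the NK gene complex. Inhibitory members recruit phosphatases through a motif in their cytoplasmic tail, while many, but not all, activating members signal through the adaptors Tyrobp (DAP12) or Hcst (DAP10). Their ligands are mostly MHC class I molecules, relatives of these, or other lectins.

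The control list held 68 peaks at the Klr loci, covering 33.754 kb, and the treatment list held 43, covering 20.903 kb. The ratio of treatment to control was 0.632 for the number of peaks, against 0.776 over the loci of all protein-coding genes (64958 and 50438 peaks). Of the control peaks, 27 had no overlapping peak in treatment, which is 39.7% (Wilson 95% interval 28.9 to 51.6, counting error only), beside 27.5% over all protein-coding loci. Of the treatment peaks, 2 had no overlapping peak in control, which is 4.65% (1.28 to 15.5), beside 6.28% over all loci. The other 41 peaks of each list paired 1 to 1. The treatment peaks at the Klr genes were therefore nearly all control peaks, and the control list held further ones.

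In total 14 members had fewer peaks in treatment, none had more, 10 had as many, and 3 had none in either library. Over all protein-coding genes, 44.9% had fewer peaks, 5.68% had more and 19.8% had none. The share of members with fewer peaks lay near that background. The counts also rested on the list and the locus. With the control list reduced to the length of the treatment list, 9 members had fewer and 3 had more (Klri1 by 3, Klrc1 by 2 and Klrd1 by 1). With the gene span alone 5 had fewer and 1 more. Shares over all genes were not computed under these alternatives. Klrg2 and Klrb1c had 6 peaks in control and 2 in treatment. Klrg1, Klrb1a and Klri2 had 3 and 1, as did Klra3. Klre1 had 8 and 6. Klrb1, Klra9 and Klra10 had 2 and 1, Klrb1f and Klrc3 had 4 and 3, and Klrb1b and Klrc2 had 5 and 4. Equal numbers were found at Klrd1 (6), Klrc1 (5), Klri1 (4), Klrk1 (3), Klra6 (2) and, with 1 peak each, at Klra17, Klra5, Klra8, Klra7 and Klra1. Klrh1, Klra4 and Klra2 had no peak.

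**Figure D1:**
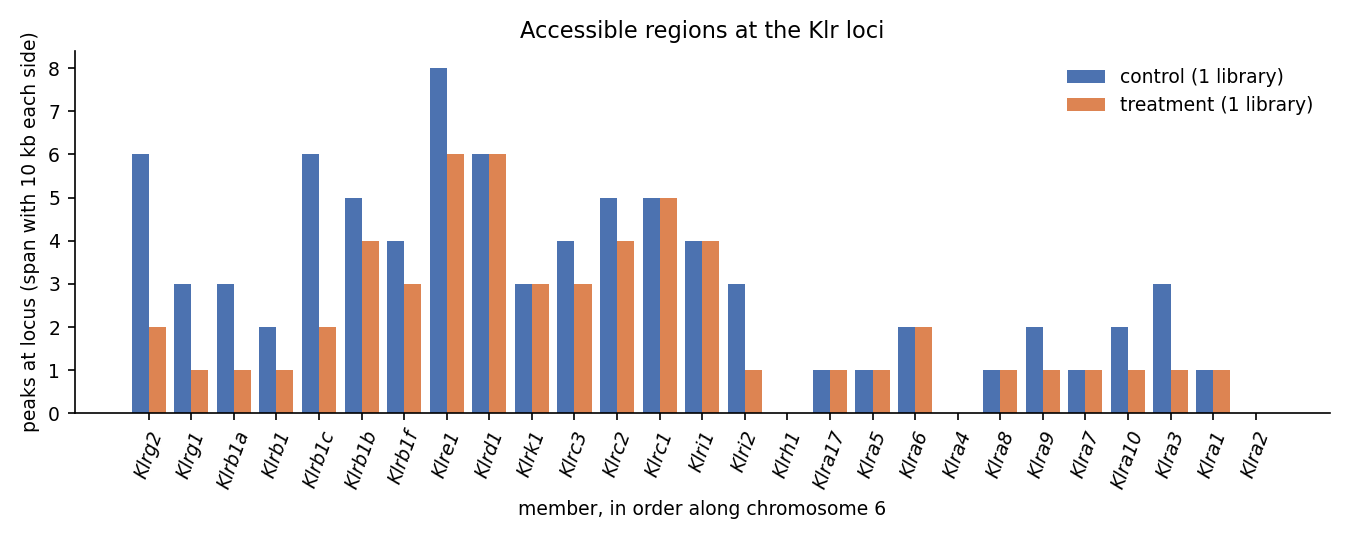
Bars give the number of peaks at each placed Klr locus (gene span with 10 kb on each side) in the control and the treatment library, with members in chromosome order. No member has a taller treatment bar; 14 have a shorter one and 3 have no bar, and a peak touching several loci is drawn at each.

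Control-only peaks were the weaker ones, as over all loci. Fold enrichment, the authors' ratio of read pile-up at a peak's summit to local background, had a median of 3.76 over the 27 control-only peaks and 10.2 over the 41 shared ones within the control list. Their median widths were 281 and 565 bp. Over all protein-coding loci the medians were 4.22 and 10.7 in fold and 292 and 677 bp in width. The control peaks ranged from 2.23 to 26.5 in fold enrichment and from 186 to 1406 bp in width. The Klr loci had a median fold of 7.79 in control, beside 8.20 over all protein-coding loci, and 6.69 in treatment, beside 7.51. By quartile of control fold over the whole list, 6 of 22 Klr peaks in the lowest quartile were shared, 6 of 15 in the next, 12 of 14 in the following one and 17 of 17 in the highest. As shares these were 27.3%, 40%, 85.7% and 100%, beside 39.3%, 64.8%, 88.2% and 98.0% for the peaks of all protein-coding loci. The lower share of shared peaks at the Klr loci lay in the weaker quartiles.

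**Figure D2:**
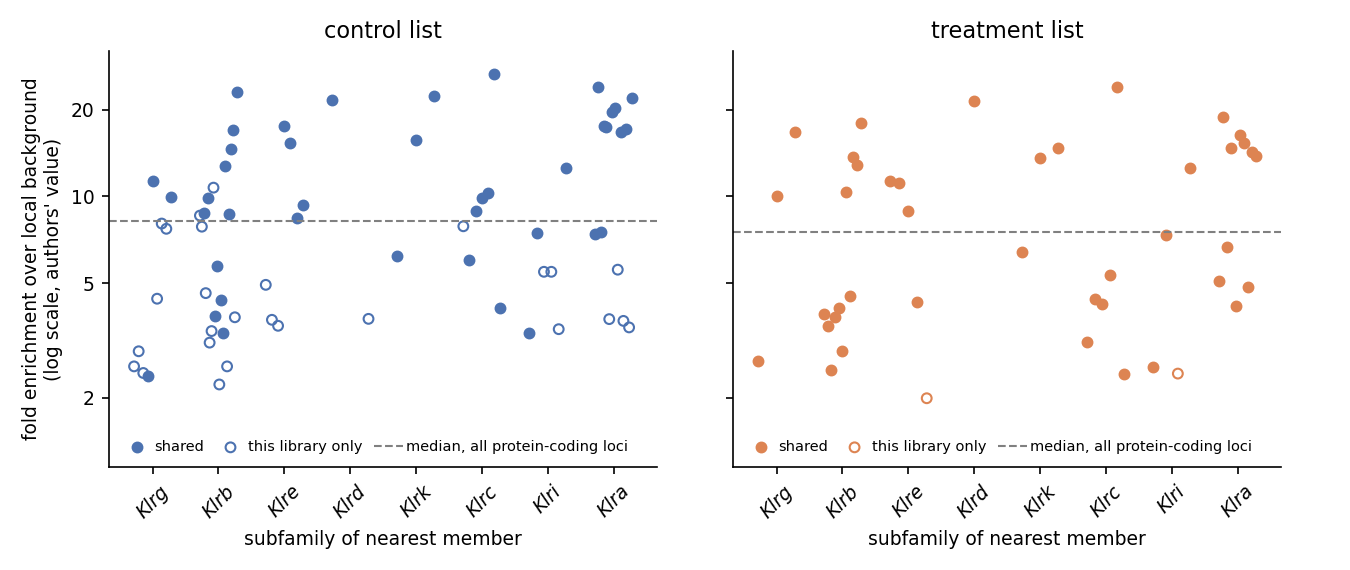
Each point is a peak at a Klr locus, placed by the subfamily of its nearest member and by the authors' fold enrichment (log axis), separately for the control and treatment lists; the dashed line is the median over all protein-coding loci. Open points, found in 1 library only, lie mostly below the line in control (median 3.76), and the 2 open points in treatment are at 2.43 and 1.996.

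Fold enrichment is not comparable between the lists, so shared peaks were compared by read coverage at the summit, a whole number recovered from the authors' fold and p-value. Both libraries appeared to have similar depth: the lowest background was 14.15 reads in control and 15.05 in treatment, or 0.0804 and 0.0809 reads per bp of the narrowest peak, if that width reflects the fragment length. Over the 41 shared peaks of the Klr loci, the median ratio of treatment to control coverage was 0.480 (quartiles 0.314 and 0.766), beside 0.720 (0.545 and 0.905) over 45949 pairs of all protein-coding loci. Coverage was lower in treatment at 36 Klr pairs, a direction seen in 84.5% of all pairs, and higher at 5, a direction seen in 15.2%. At 22 Klr pairs (53.7%) it was under 0.5 times the control value, beside 19.6% of all pairs. The direction was thus that of the whole library. The share under 0.5 was 41.9% over the 31 pairs without the Klra genes, and 42.1% and 33.3% over the pairs of the NK cell and B cell marker lists, so a share above that of all loci was not confined to the Klr genes. In alternatives added after the values were seen, the median ratio was 0.591 without the Klra genes and 0.783 over the 14 pairs without the Klra, Klrb and Klrc genes, the latter above the 0.720 of all loci. Peaks with control coverage of 600 reads or more had a median ratio of 0.456 at the Klr loci (12 pairs, 6 of them Klra) and 0.831 over all loci, and the 6 other Klr pairs of that strength had 0.756. Among peaks of 100 to 300 control reads the medians were 0.418 and 0.629, among those of 300 to 600 reads 0.512 and 0.640, and below 100 reads, with 3 Klr pairs, 0.800 and 0.862. The gap among the strongest peaks was thus mostly that of the Klra genes, but the gaps at 100 to 600 reads were not. At 100 to 300 reads the 11 other Klr pairs had a median ratio of 0.376, and the 3 Klra pairs 0.459. At 300 to 600 reads the 11 other pairs had 0.527, and the 1 Klra pair 0.142. Shared Klr peaks were narrower in treatment in 35 of 41 pairs (85.4%), beside 78.8% of all pairs. The median width ratio was 0.851, beside 0.915 over all loci. Summits fell on the same base in 13 of 41 pairs (31.7%), beside 30.5%.

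**Figure D3:**
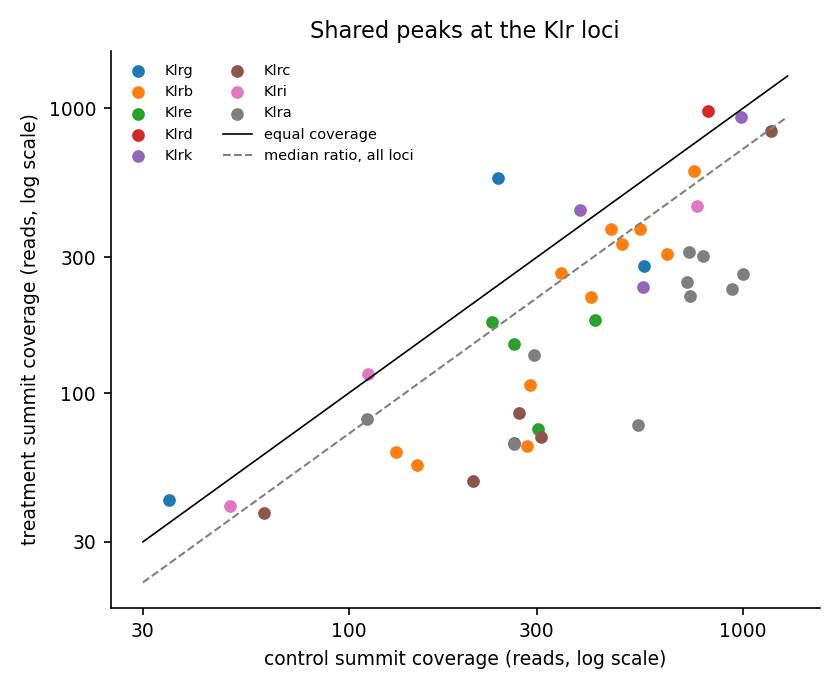
Each point is 1 of the 41 shared peaks at the Klr loci, with its summit coverage in control (horizontal) and treatment (vertical) in reads on log axes, coloured by subfamily. The solid line is equal coverage and the dashed line the median ratio of all loci, 0.720; all 10 Klra points lie below the solid line, while Klrg1 and Klrd1 lie above it.

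Few Klr promoter windows at listed starts carried a peak, so the sequences that did are shown first. RefSeq promoter windows (250 bases before to 50 after a start, GRCm38.p6, the assembly of mm10) were found for 24 of the 27 members, 29 windows in all. Klrg1, Klrd1 and Klri2 had no entry. Of the 29 windows, 5, belonging to Klrg2, Klrc3, Klrc2 and Klra1, overlapped a peak in control, and the same 5 in treatment. Over the whole promoter table, 46.3% of windows overlapped a control peak and 42.9% a treatment peak. Some listed starts lie inside the gene span, so a window without a peak does not show that the gene's end was closed. At Klre1 a shared peak (control fold 17.5, 421 reads) overlapped the first base of the span. Its summit lay 18759 bp before the listed start. The windows of these 4 genes, all on the minus strand and written 5′ to 3′ along the gene, follow, with matches to the searched motifs in capitals.
Klrg2 (chr6:38637190-38637489): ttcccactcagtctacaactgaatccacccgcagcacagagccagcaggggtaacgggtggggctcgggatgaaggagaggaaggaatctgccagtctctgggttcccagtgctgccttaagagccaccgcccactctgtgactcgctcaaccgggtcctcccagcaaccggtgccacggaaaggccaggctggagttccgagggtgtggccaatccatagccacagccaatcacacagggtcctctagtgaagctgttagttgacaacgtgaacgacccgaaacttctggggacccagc
Klrc3 (chr6:129643239-129643538): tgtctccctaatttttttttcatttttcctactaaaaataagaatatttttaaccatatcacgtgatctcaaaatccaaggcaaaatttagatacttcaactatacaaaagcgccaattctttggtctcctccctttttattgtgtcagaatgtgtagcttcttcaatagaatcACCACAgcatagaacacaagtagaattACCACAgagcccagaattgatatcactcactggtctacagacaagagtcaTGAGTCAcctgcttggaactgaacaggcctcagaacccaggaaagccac
Klrc2 (chr6:129660507-129660806): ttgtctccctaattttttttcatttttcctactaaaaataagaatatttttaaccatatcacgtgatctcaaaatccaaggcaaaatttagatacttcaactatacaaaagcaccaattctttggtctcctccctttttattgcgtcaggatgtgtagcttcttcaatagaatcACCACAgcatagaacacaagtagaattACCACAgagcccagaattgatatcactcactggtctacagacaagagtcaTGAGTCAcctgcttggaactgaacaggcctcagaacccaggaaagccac
Klra1 (chr6:130386825-130387124): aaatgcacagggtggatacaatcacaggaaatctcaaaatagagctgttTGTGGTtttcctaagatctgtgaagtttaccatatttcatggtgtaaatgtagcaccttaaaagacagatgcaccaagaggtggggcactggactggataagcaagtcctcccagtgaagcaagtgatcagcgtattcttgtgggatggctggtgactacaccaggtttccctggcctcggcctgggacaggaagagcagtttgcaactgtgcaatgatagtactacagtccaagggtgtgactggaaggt

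The Klrc3 and Klrc2 windows, the latter from 1 of that gene's 2 listed starts, were 98.3% identical over 301 aligned columns. Both hold a pair of Runx matches (TGTGGT, here on the other strand as ACCACA) and an AP-1 match (TGANTCA). Klra1 holds 1 Runx match and Klrg2 none of the 7 motifs. Over all 29 windows, Runx letters were in 9 (31.0%, beside 16.8% of 32851 promoters), AP-1 in 5 (17.2%, beside 7.81%), TCF/LEF (CTTTGA) in 8 (27.6%, beside 16.0%) and STAT5 (TTCNNNGAA) in 4 (13.8%, beside 8.30%). T-box (AGGTGTGA), Ets (CCGGAA) and E-box (CAGCTG) letters were in no Klr window, beside 1.28%, 14.9% and 16.3% of all promoters. Both strands were searched, matches of different motifs could overlap, and neighbouring windows share bases and ancestry.

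Klrc1 encodes NKG2A, the inhibitory partner of CD94 on NK cells and activated CD8+ T cells, and its locus held the strongest Klr peak of the control list. This peak, at chr6:129680274-129680852, had a fold of 26.5 in control and 23.9 in treatment. Its coverage was 1177 control and 832 treatment reads, a ratio of 0.707 (exact 95% counting interval 0.646 to 0.773), close to the median of all loci. Its summit lay 1673 bp upstream of the start listed in the promoter table, but inside the gene span. The weak second Klrc1 peak, 10015 bp upstream of that start, had 61 and 38 reads.

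Klrc2 and Klrc3 encode NKG2C and NKG2E, which also pair with CD94. In control both genes had a peak at the start and another with its summit 930 bp upstream. In treatment the upstream summits lay 1055 bp from the start at Klrc2 and 1158 bp at Klrc3. The start peaks had 262 and 67 reads at Klrc2, a ratio of 0.256 (0.193 to 0.336), and 207 and 49 reads at Klrc3, a ratio of 0.237 (0.170 to 0.325). The upstream peaks had 271 and 85 reads at Klrc2 and 307 and 70 reads at Klrc3. All 4 of these peaks thus had lower ratios than the strong Klrc1 peak beside them. Another peak, inside Klrc3 at chr6:129640304-129640720, was found in control only, with a fold of 7.88 and 272 reads. Klrc2 and Klrc3 are near-copies at their starts, and how reads were divided between them was not tested.

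Klrd1 encodes CD94, the shared partner of the NKG2 chains, and went the other way. Its main peak, at chr6:129591463-129591983 inside the gene, had 818 control and 978 treatment reads, a ratio of 1.20 (1.09 to 1.31), with folds of 21.5 and 21.5. A weak peak in the same gene, with 56 reads, was found in control only. So the common chain and the Klrc1 peak were close to or above the level of all loci, while the Klrc2 and Klrc3 peaks were well below it.

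Klrk1 encodes NKG2D, an activating receptor that also costimulates CD8+ T cells through Hcst. All 3 of its peaks were in both libraries. A pair of peaks downstream of the gene had 386 and 439 reads (ratio 1.14, 0.990 to 1.31) and 989 and 934 reads (0.944, 0.863 to 1.03). The peak 3779 bp upstream of the listed start, at chr6:129627235-129628036, had 558 and 236 reads, a ratio of 0.423 (0.362 to 0.493), and folds of 22.3 and 14.8. Around this gene, the upstream peak was under the 0.5 ratio and the downstream ones were not. None of the 3 lay inside the gene. The downstream peaks also fell in the Klrd1 locus, and the upstream one in the Klrc3 locus.

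Klre1, Klri1 and Klri2 encode receptors in which KLRE1 pairs with KLRI1 or KLRI2. Klre1 held 4 shared peaks, all lower in treatment, with 421 and 181, 231 and 177, 263 and 149, and 302 and 75 reads. All 4 had their summits inside the gene span, and the last had a ratio of 0.248 (0.190 to 0.321). The gene also had 3 control-only peaks of 69 to 240 reads on its upstream side, 1 of them nearer to Gabarapl1, and a treatment-only peak at chr6:129584216-129584449 with a fold of 1.996 and 34 reads. Klri1 had a shared peak of 112 and 117 reads inside the gene and a weaker one of 50 and 40 reads. The other treatment-only peak of the family lay inside Klri1, at chr6:129704989-129705222, with a fold of 2.43 and 38 reads. The Klri2 peak at chr6:129747074-129748150 had 768 and 454 reads, a ratio of 0.591 (0.525 to 0.665). Klri1 and Klri2 each had a narrow control-only peak of 82 reads inside the gene, 187 and 186 bp wide with the same fold of 5.48. Klri2 had another control-only peak outside the gene, at chr6:129743400-129743855, with a fold of 3.46 and 210 reads. The lowest ratio of these 3 genes was thus inside Klre1, and both treatment-only peaks were close to the smallest coverage in the treatment list, 31 reads.

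The Klrb genes encode NKR-P1 receptors, which bind Clec2 lectins, and all 5 had fewer peaks in treatment, as had 44.9% of all genes. Of 20 control peaks nearest to a Klrb gene, 9 were found in control only (45%, 25.8 to 65.8), an interval that holds the 27.5% of all loci, and all 11 treatment peaks were shared. The shared pairs had a median coverage ratio of 0.527, with a range of 0.230 to 0.814 and 11 of 11 lower in treatment, beside 84.5% of all pairs. Klrb1c, which encodes the activating NK1.1 antigen of some mouse strains, had the strongest control-only peak of the whole family. It lay 2026 bp upstream of the start at chr6:128790399-128791050, with a fold of 10.7 and 482 reads. A second control-only peak lay 1292 bp upstream, with 148 reads. The Klrb1c peak 4523 bp upstream had 283 and 65 reads, a ratio of 0.230 (0.173 to 0.302), and the one 7796 bp upstream had 641 and 308. Accessibility upstream of Klrb1c was therefore lower at each of its shared peaks and not called at others.

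Klrb1a and Klrb1 each had 1 shared peak, with 132 and 62 reads and 149 and 56 reads. Klrb1a had a control-only peak 2383 bp upstream of its start (fold 7.85, 118 reads) and another downstream of the gene (fold 8.58, 129 reads). Klrb1b encodes an inhibitory receptor for Clec2d. Its 3 downstream peaks had ratios of 0.814, 0.768 and 0.685, while its upstream peak, at chr6:128833006-128833628, had 289 and 107 reads, a ratio of 0.370 (0.294 to 0.464). Klrb1f held 3 strong shared peaks, with 751 and 604 reads 8778 bp upstream of its start (ratio 0.804), 412 and 217 reads inside the gene (0.527), and 493 and 335 reads downstream (0.680). The last, at chr6:129066773-129067517, had folds of 22.98 and 17.99. The downstream peaks of both genes and the upstream peak of Klrb1f were thus near the level of all loci, and the upstream peak of Klrb1b was below it.

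Klrg1 encodes an inhibitory receptor for cadherins and is a widely used marker of effector CD8+ T cells. It had the highest coverage ratio of the family. The peak at chr6:122291649-122292085, outside the gene span of 122270596 to 122282833, had 239 control and 572 treatment reads, a ratio of 2.39 (2.05 to 2.80), with folds of 9.92 and 16.7. At the other end of the gene, 2 peaks were found in control only, with folds of 8.05 and 7.72 and 121 and 116 reads. The Klrg1 locus therefore had fewer peaks in treatment but a stronger one. Klrg2, a lectin-like gene far from the others on the chromosome, had its strongest peak at its promoter, with 561 and 279 reads, a ratio of 0.497 (0.429 to 0.575). A weak peak inside Klrg2 had 35 and 42 reads. Its 4 control-only peaks had folds between 2.44 and 4.42.

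The Klra genes encode the Ly49 receptors, most of which are inhibitory receptors for MHC class I in mice. Their loci held few but strong peaks, with a median fold of 16.9 in control, where all loci had 8.20, and 14.002 in treatment. Of 14 control peaks nearest to a Klra gene, 10 were shared, beside 72.5% of control peaks over all loci. Coverage was lower in treatment at all 10, beside 84.5% of all pairs, and under 0.5 times control at 9, beside 19.6%. The median ratio was 0.319, with a range of 0.142 to 0.730. The shared count and the direction were near the background, and the size of the difference was not.

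Several of the strongest Klra peaks lay at a similar distance from the genes. The bounds of 4.5 and 5 kb used here were not planned in advance, so the counts only describe these summits. Of 8 members with an upstream control peak, 5 had the strongest summit between 4.5 and 5 kb from the end of the gene's span, and 5, not all the same, had it at that distance from the listed start. Measured from a start in the promoter table, the summits were 4562 bp upstream at Klra5, 4894 bp at Klra6, 4670 bp at Klra9, 4629 bp at Klra7 and 4693 bp at Klra3. From the end of the span the Klra9 summit was 3408 bp away. At Klra10 the distance was 4749 bp from the end of the span and 6468 bp from the listed start. Klra8 had its peak 6779 bp upstream, and Klra1 had its own at the promoter, 153 bp upstream. Klra6, Klra9, Klra10 and Klra3 had another control peak nearer the gene, with summits 1910, 1974, 1911 and 1893 bp from the strong one. The nearer peak was shared at Klra6 (296 and 136 reads) and found in control only at the other 3 (181, 181 and 182 reads). A similar layout was thus seen at several, but not all, of the gene copies.

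Klra9 (Ly49I) had the highest control coverage of these peaks, 1001 reads, and a treatment coverage of 262 (ratio 0.262, 0.228 to 0.300). Klra3 (Ly49C) had 942 and 232 reads, and a further control-only peak 7923 bp upstream. Klra5 (Ly49E) had 794 and 302 reads, and Klra1 (Ly49A) had 734 and 220. Klra6 (Ly49F) had 729 and 314 reads and Klra7 (Ly49G) 723 and 245. Klra10 had the lowest ratio of all 41 pairs, 542 and 77 reads, or 0.142 (0.110 to 0.181). Klra8 (Ly49H), an activating receptor known for recognising a cytomegalovirus protein, had 263 and 66 reads. Klra17 (Ly49Q), known from myeloid and plasmacytoid dendritic cells, differed from the rest, with a weak peak downstream of the gene of 111 and 81 reads. No Klra member had higher coverage in treatment.

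**Figure D4:**
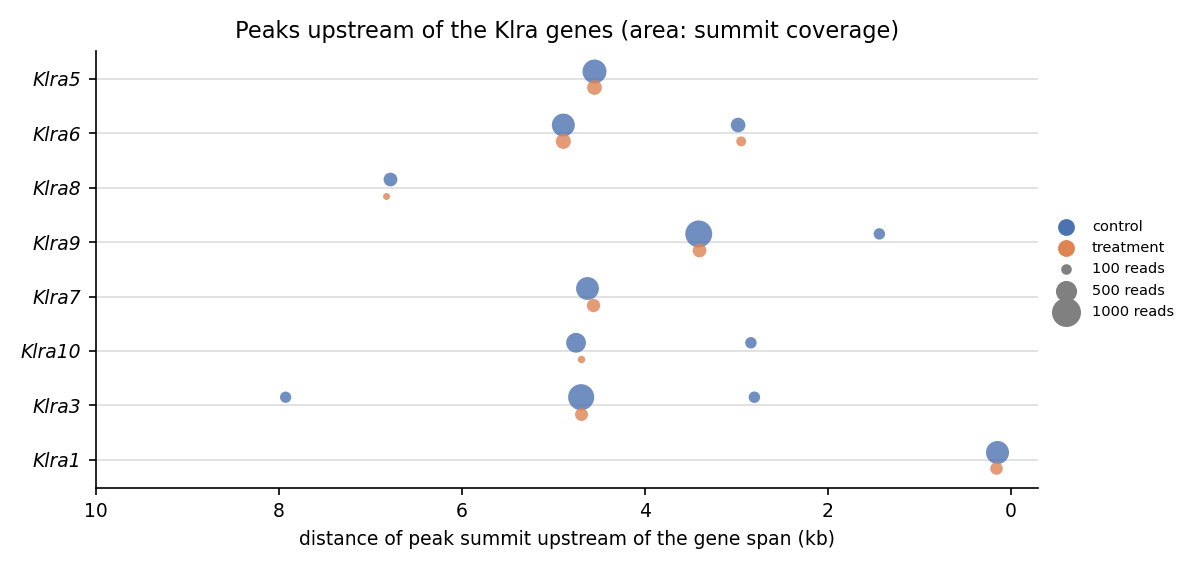
Peaks upstream of 8 Klra genes are placed by the distance of their summit from the gene span in kb, with point area proportional to summit coverage in reads and colour giving the library. Klra5, Klra6, Klra7, Klra10 and Klra3 share a strong control peak between 4.5 and 5 kb, and each treatment point is smaller than its control point.

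Fold enrichment, which is not comparable between the lists, showed less of this difference than coverage at Klra peaks where the local background also differed. At Klra3 the background was 54.1 reads in control and 15.4 in treatment, and the fold was 17.1 and 14.2. At Klra9 it was 49.9 and 15.05 reads. At Klra8 and Klra17 the background was 14.15 and 15.05 reads, the lowest of each list. There the fold differed about as much as coverage: Klra8 had folds of 17.4 and 4.17 with 263 and 66 reads. The median background under the shared Klr peaks was 32.5 reads in control and 15.4 in treatment, beside 33.4 and 25.2 reads under the shared peaks of all loci. The Klra genes are close copies of each other, and how reads were divided among the copies was not tested, since the mapping filter is not given in the labels.

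Klra4 (Ly49D), an activating receptor, had no peak. Its promoter window was 86.0% identical to the Klra8 window, the highest percentage of 55 pairs of Klra genes. The range began at 44.9% and the median was 53.0%. These percentages depend on which starts are listed: Klrc3 and Klrc2 had 75.1% or 98.3% by the Klrc2 start used. Klra9 and Klra3 had more identical bases than Klra4 and Klra8, 271 against 259, but 85.0% over 319 aligned columns. Both windows are shown because the loci differ: Klra8 had an upstream peak, outside its window, in both libraries and Klra4 had none. They lie on the minus strand of GRCm38.p6, and neither holds any of the 7 motifs, so no letters are in capitals.
Klra4 (chr6:130067222-130067521): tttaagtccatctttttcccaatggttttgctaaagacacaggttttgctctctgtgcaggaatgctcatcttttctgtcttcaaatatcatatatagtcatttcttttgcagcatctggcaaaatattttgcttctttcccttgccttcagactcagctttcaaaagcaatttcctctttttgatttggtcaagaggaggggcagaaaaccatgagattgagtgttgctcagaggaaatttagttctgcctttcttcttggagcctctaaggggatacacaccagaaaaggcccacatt
Klra8 (chr6:130129849-130130148): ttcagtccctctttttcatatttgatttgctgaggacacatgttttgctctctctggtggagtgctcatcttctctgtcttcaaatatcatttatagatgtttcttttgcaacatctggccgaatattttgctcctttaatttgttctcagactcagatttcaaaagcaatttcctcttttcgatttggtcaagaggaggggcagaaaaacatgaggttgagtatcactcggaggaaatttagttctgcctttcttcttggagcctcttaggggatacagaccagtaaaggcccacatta

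Genes that act with the receptors were read from lists, as peaks at their loci. Of 12 adaptor and signalling genes, 11 had fewer peaks in treatment and none had more, beside 44.9% and 5.68% of all genes. All genes include the 19.8% with no peak, while each gene of this list had peaks. The list held 134 and 96 peaks, a ratio of 0.716 beside 0.776 over all loci. Fyn, a kinase of the Src family, had 43 and 35 peaks, Plcg2, a phospholipase, 12 and 5, Vav1, an exchange factor, 14 and 9, and Inpp5d, the phosphatase SHIP, 10 and 5. Tyrobp and Hcst, named for their role after their values were seen, each had 6 and 5. Their loci overlap and hold the same peaks, so the same difference is counted at both genes in the 11. The median coverage ratio over the 94 shared pairs of this list was 0.686, near that of all loci. Of the 6 Clec2 ligand genes, 2 had fewer peaks and none more, with 18 and 16 peaks, and Clec2h had none. Of 9 MHC and NKG2D ligand genes, 2 had fewer and 1 more, with 32 and 31 peaks, and H60c had none. These ligand lists held nearly the same number of peaks in both libraries.

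Other lectin genes of the NK complex held 18 and 14 peaks, a ratio of 0.778 beside 0.776 over all loci. Of the 8 genes, 6 had fewer, beside 44.9% of all genes. Some of these loci overlap and a peak counts at each gene it touches, so the 6 are not separate observations. Clec12b had 7 and 5 peaks, Clec9a 4 and 2, and Clec1a 3 and 1. Their 12 shared pairs had a median coverage ratio of 0.642, above the Klr value of 0.480. Of 7 NK receptors of other families, 4 had fewer peaks and none more (46 and 36 peaks, a ratio of 0.783). Cd244a, a SLAM-family receptor, had 11 and 4. Of 12 regulators of NK-type genes, 7 had fewer peaks and 2 more (153 and 137 peaks). Runx3, a factor of the CD8 lineage, had 16 and 11, Prdm1, which encodes Blimp-1, 13 and 9, Eomes, a T-box factor, 6 and 3, and Bach2, a repressor of effector genes, 44 and 41. Their 122 shared pairs had a median ratio of 0.816.

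All 8 placed genes of the CD8 T cell list had peaks in both libraries (56 and 58 peaks). Cd5 had 7 and 11 peaks, Cd8b1 9 and 11, Cd8a 9 and 7, and Cd2 10 and 8, and the list's 47 shared pairs had a median coverage ratio of 0.880. Of 7 genes listed as NK cell markers outside the family, 4 had fewer peaks in treatment and 1 had more (30 and 22 peaks). Ncr1, a defining NK marker, had no peak in either library, while Fcer1g had 5 and 3. Ncam1, listed although it marks human rather than mouse NK cells, had 4 and 1. Coverage was lower in treatment at all 19 shared pairs of the NK marker list, a direction seen in 84.5% of all pairs, with a median ratio of 0.638. The B cell list had 25 and 24 peaks and a median ratio of 0.578, below that of the NK list. The CD4 T cell list had 35 and 34 peaks and a ratio of 0.840, and the myeloid list 17 and 11 peaks and a ratio of 1.02. The part of other cell types in the Klr result was not tested, and fewer cells with open Klr loci cannot be told apart from less open loci in each cell.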

How the data were processed

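ATAC-seq peak lists of 2 libraries were used, called by the authors per library and deposited in the narrowPeak layout. Per the submitters' processing notes, reads were handled with MACS2 (version not listed), Picard 2.20, Bowtie2 2.3 and cutadapt 2.5 on mm10. Tool settings, mapping-quality and duplicate filters and read shifts are not given in the sources used here. Each deposited peak carries the authors' score, fold enrichment as a ratio to local background, and p-value and q-value as −log10.

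Only chromosomes 1 to 19, X and Y were kept. A peak was shared when it overlapped the other list by at least 1 bp. Summit coverage and local background were solved from fold and −log10 p to within 0.001, which succeeded for 99.994% of control and 99.977% of treatment peaks. The calculation was tested on simulated data. Read totals are unknown. Intervals are at 95% and cover counting error only, since reads may not be independent molecules. Gene spans and promoters came from RefSeq (GRCm38.p6). Promoter orientation was checked on 842 gene pairs, all of which read correctly. Promoters were aligned globally (match 1, mismatch -1, gap opening -2, extension -0.5).

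The members and lists were chosen with earlier results of these data known. Single-library peaks were named by fold (5 per list), shared peaks likewise, and other genes where counts differed by at least 2 or no peak was found, up to 4 a list. Further peaks were named to account for every member, after their values were seen. Alternatives varied the threshold, list length, locus and overlap. Python 3.11.15, pandas 2.3.3, numpy 2.4.6, scipy 1.17.1, Biopython 1.88 and matplotlib 3.10.9 were used.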

Additional observations from a re-analysis of the deposited data

How the results depend on the processing

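With the span alone there were 21 control and 15 treatment peaks, 5 members with fewer and 1 with more, Klre1, whose difference of treatment minus control turned from -2 to 1. With 50 kb on each side there were 118 and 84 peaks and 25 members with fewer. With the control list reduced to the number of treatment peaks by −log10 p, 52 control peaks remained at the Klr loci. Of these 73.1% were shared, and 9 members had fewer and 3 more. The shares over all protein-coding genes were computed only with 10 kb and the full lists. The counts under these alternatives therefore have no background beside them and describe the Klr loci only. Treatment peaks were shared in 100% at a −log10 q of at least 10 and in 83.7% at 50% reciprocal overlap. Added after seeing the data, a summit coverage of at least 100 reads left 27 treatment peaks, 100% of them shared, and the median coverage ratio was 0.783 without the Klra, Klrb and Klrc genes (14 pairs). With 0 to 8 peaks a member, single differences are not stable: under the reduced control list Klrg2 went from -4 to 0 and Klre1 from -2 to 0. The cause of these changes was not tested beyond the change in the region or list itself. No paired analysis was possible because each group has 1 library. The smallest coverage called was 29 reads in control and 31 in treatment, and weaker accessible regions were not detectable at this depth.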

Other observations

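Pseudogenes of the family carried peaks too. Klra11-ps had 2 peaks in control and 1 in treatment, the strongest with 276 and 113 reads and a fold of 18.3 and 7.10. Klra13-ps had 3 and 2 peaks, of which 2 and 1 also lie in the Klra10 locus, and the strongest had 565 and 77 reads at different peaks. Klrb1-ps1 and Klra14-ps had none in either library. Coverage at Klra11-ps was lower in treatment, as at the Klra genes.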
